A study of Mus musculus with 2 samples.

Results

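The circadian clock genes described here are 10 genes chosen by name, Arntl, Clock, Per1, Per2, Cry1, Cry2, Nr1d1, Nr1d2, Dbp and Bhlhe40, of 55536 annotated genes measured. All 10 were found in the gene-level table of each library, and all 43 of their annotated transcripts were found in both kinds of transcript table, out of 141862 transcripts. The cells were bone-marrow-derived macrophages, phagocytes grown in culture from marrow of C57BL/6J mice, an inbred strain. They carried no genetic change that the labels name. All of them were treated alike: 12 h with 100 ng/ml lipid A, the membrane anchor of bacterial lipopolysaccharide and the ligand of Toll-like receptor 4, then 12 h without it, then 50 min with 100 ng/ml lipid A again. RNA of the nucleoplasmic fraction, which the labels also call nuclear, was depleted of ribosomal RNA and sequenced in 2 libraries of this 1 group, biological replicate 1 from 500 ng of RNA and biological replicate 2 from 1 µg. Both replicates carry the same donor entry, the sex and age of the mice were not collected, and no unstimulated, whole-cell or time-course library was analysed here. The clock hour at which the cells were taken is not in the labels. Replicate and RNA input cannot be told apart, and an SD below is the spread between the 2 libraries, which may be technical.

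The mammalian clock is a loop of transcription in which CLOCK and BMAL1, the product of Arntl, bind E-boxes and turn on the Period and Cryptochrome genes, whose proteins then block CLOCK and BMAL1. A second loop runs through the nuclear receptors REV-ERBα and REV-ERBβ, the products of Nr1d1 and Nr1d2, which repress Arntl through RORE elements. The clock runs in macrophages, where REV-ERB proteins are known to restrain inflammatory genes. Cells in culture drift out of phase with each other unless a shared stimulus sets them, so that levels in bulk RNA are a mean over the phases of many cells.

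The libraries held 20612078 and 22772081 counts in genes in replicates 1 and 2. They were separate libraries and not 1 deposited under 2 names: over 13831 genes, the chi-square of their counts divided by its degrees of freedom was 66.6, and the biological coefficient of variation between them was 0.209. The 9 macrophage markers, Lyz2, Adgre1, Csf1r, Ctss, Cd68, Itgam, Spi1, Fcgr1 and Mertk, summed to 2554 and 2931 TPM (counts per unit of transcript length, scaled to a fixed total). The 28 markers of T, B, natural killer, dendritic, mast and endothelial cells, neutrophils, fibroblasts and erythroid cells summed to 3.51 and 5.27 TPM, and 7 of them had a mean of 0. In bulk RNA, fewer cells that use a gene and less of its RNA per cell cannot be told apart.

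The sequences before the start sites are shown for the paralogs Nr1d1 and Nr1d2, which lie farthest apart in level below, and for Per1 and Cry1, the clock repressors whose windows hold a full E-box. Each window is the 250 bases before the start that RefSeq gives (GRCm38.p6, the build the files call mm10), on the gene's own strand, with motif matches in capitals. Nr1d1 is shown at chr11:98775378-98775627 (minus strand), Nr1d2 at chr14:18239107-18239356 (minus), Per1 at chr11:69098699-69098948 (plus) and Cry1 at chr10:85185055-85185304 (minus).
Nr1d1: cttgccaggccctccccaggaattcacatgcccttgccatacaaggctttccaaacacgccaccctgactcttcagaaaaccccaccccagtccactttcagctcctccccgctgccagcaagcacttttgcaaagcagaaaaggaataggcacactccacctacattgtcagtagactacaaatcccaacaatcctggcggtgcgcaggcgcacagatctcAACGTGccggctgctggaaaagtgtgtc
Nr1d2: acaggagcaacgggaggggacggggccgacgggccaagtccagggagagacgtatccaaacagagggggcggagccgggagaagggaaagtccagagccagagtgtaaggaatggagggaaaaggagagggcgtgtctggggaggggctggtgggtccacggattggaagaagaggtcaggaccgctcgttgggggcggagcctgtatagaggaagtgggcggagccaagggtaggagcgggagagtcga
Per1: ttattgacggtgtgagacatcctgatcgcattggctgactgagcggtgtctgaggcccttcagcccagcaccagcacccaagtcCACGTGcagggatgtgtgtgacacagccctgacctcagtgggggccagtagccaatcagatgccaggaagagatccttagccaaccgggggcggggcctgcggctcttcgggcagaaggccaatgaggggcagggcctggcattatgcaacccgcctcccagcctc
Cry1: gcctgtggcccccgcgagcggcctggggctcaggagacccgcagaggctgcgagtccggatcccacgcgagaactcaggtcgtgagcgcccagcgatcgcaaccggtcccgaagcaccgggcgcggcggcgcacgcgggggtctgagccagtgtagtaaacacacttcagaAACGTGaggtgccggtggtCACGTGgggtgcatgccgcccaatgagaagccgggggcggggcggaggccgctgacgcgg

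The E-box, E′-box, D-box, RORE and cAMP response element were searched on both strands in the 300 bases from 250 before to 50 after the start, for the 8 clock genes that have an entry in the RefSeq promoter table. Per2 and Bhlhe40 have none. Clock has 3 entries, and Arntl and Per1 have 2 each. Only the entry nearest the start of the coding transcript with the highest TPM was searched. For Dbp the start in that entry lies 159 bases from the start of Dbp-201. The E-box, CACGTG, was found in Per1, 166 bases before the start, and in Cry1, 60 bases before it, and 7.15% of all 32851 promoters of this length held one. The E′-box, CACGTT, was found 79 bases before the start of Cry1, 166 before that of Cry2 and 28 before that of Nr1d1, in each case read as its complement AACGTG, against 4.685% of all promoters. The RORE, GTAGGTNA, was found in Arntl 40 bases after the start, against 2.137% of all promoters. The D-box, TTATGTAA (0.9376% of promoters), and the cAMP response element, TGACGTCA (1.79%), matched none of the 8, and no matches overlapped. The windows of Clock, Nr1d2 and Dbp held no match to any motif searched. The Arntl site is printed with its flanks because REV-ERB proteins are known to act on this gene through RORE elements. It is a match of letters within this window, and it lies at chr7:113207485-113207514 on the plus strand.
Arntl: ggagcggattggtcggaaaGTAGGTTAgtg

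The clock genes stood at low to middle levels in this nuclear RNA. Their means ran from 0.14 to 13.98 TPM with a median of 2.685 TPM, against a median of 3.585 TPM over the 12140 protein-coding genes that had 10 or more counts over both libraries. Nr1d2, Clock and Per1 were above that median in both libraries. The mean of Bhlhe40, 3.915 TPM, was above it too, but its value in replicate 1, 3.52 TPM, was not. Without its transcripts under 500 bases the mean was 3.295 TPM, below that median, which keeps such transcripts of the other genes. The means of the other 6 were below it. None of the 10 was above the 90 percentile of those genes, at 28.7 TPM, where 10% of them lie by construction. Clock and Nr1d2 alone held 67.6% and 64.0% of the 5077 and 4385 counts of the 10 genes in replicates 1 and 2 (mean 65.8% ± 2.54, SD, n = 2).

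**Figure D1:**
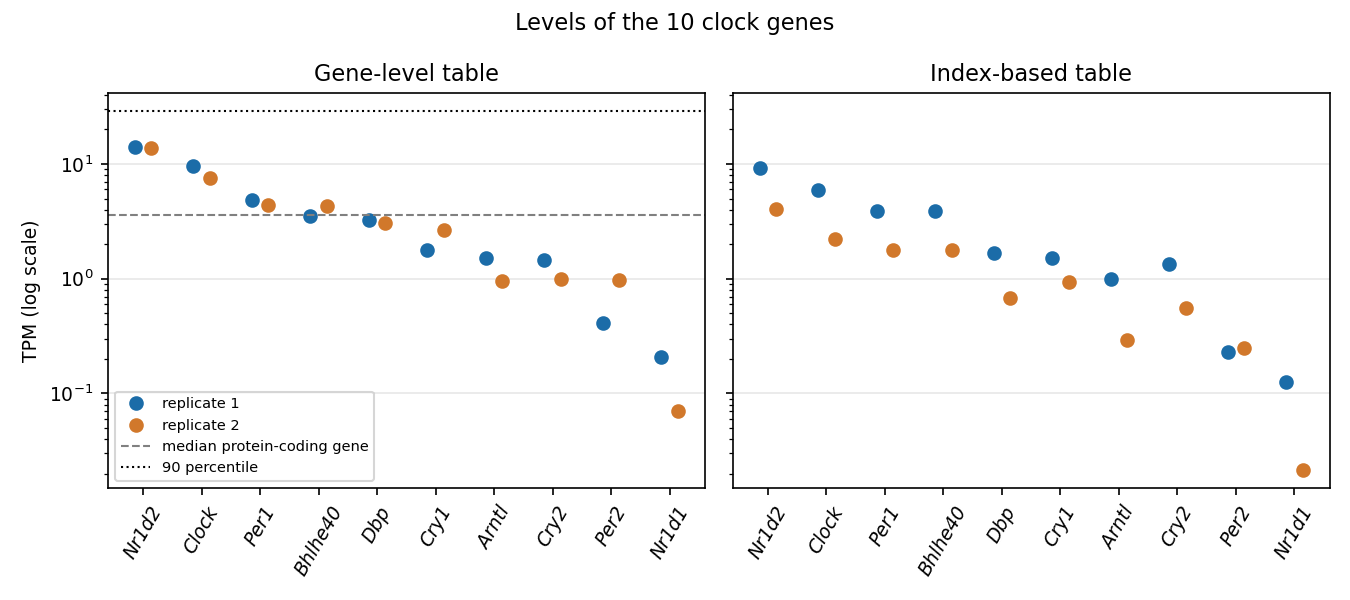
TPM of the 10 clock genes on a log axis in replicate 1 (blue) and replicate 2 (orange), in the gene-level table (left) and the index-based transcript table (right); the lines mark the median and the 90 percentile of protein-coding genes in the gene-level table. Nr1d2 is the highest in both libraries and Nr1d1 the lowest, and no gene reaches the 90 percentile.

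The activators of the loop were unequal. Clock, which encodes the DNA-binding partner of BMAL1, lies at chr5:76209868-76304792 on the minus strand (ENSMUSG00000029238.11). It had 1849 and 1426 counts, or 9.55 and 7.57 TPM, in replicates 1 and 2 (8.56 ± 1.40 TPM, SD, n = 2), which put its mean at percentile 69.6 of protein-coding genes. Arntl lies at chr7:113207465-113314126 on the plus strand (ENSMUSG00000055116.8) and had 129 and 85 counts, or 1.52 and 0.96 TPM (1.24 ± 0.396 TPM, percentile 29.1). Both genes were higher in replicate 1, and the ranges of the genes did not overlap. The TPM of Clock was 6.28 and 7.89 times that of Arntl.

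The Period genes encode the PAS-domain proteins that form the repressor complex with the Cryptochromes. Per1, at chr11:69095217-69109960 on the plus strand (ENSMUSG00000020893.17), had 651 and 622 counts, or 4.81 and 4.36 TPM (4.585 ± 0.318 TPM, SD, n = 2, percentile 55.4). Per2, at chr1:91415982-91459324 on the minus strand (ENSMUSG00000055866.9), had 77 and 93 counts, or 0.41 and 0.97 TPM (0.69 ± 0.396 TPM, percentile 20.5). Per1 was the higher of the pair in both libraries, at 11.7 and 4.49 times the TPM of Per2. Without transcripts under 500 bases the ratios were 11.7 and 9.06.

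The Per2 counts were nearer to each other than its TPM values. The TPM of replicate 2 rested on Per2-202, a processed transcript of 231 bases that shares 208 of them with the coding transcript Per2-201. Per2-202 was assigned 0 and 0.96 counts in replicates 1 and 2, and those 0.96 counts made 0.50 TPM, 51.0% of the TPM of Per2 in replicate 2. Per2-201, of 5833 bases, had 77 and 92.0 counts, which made 0.41 and 0.48 TPM. Without transcripts under 500 bases, Per2 therefore stood at 0.41 and 0.48 TPM. The sequence of Per2-202 (GENCODE M21, chr1:91447722-91449865, minus strand, 3 exons) is printed to show how little of it is its own: the 23 bases in capitals are its last exon, at chr1:91447722-91447744, and the rest is shared with Per2-201.
Per2-202: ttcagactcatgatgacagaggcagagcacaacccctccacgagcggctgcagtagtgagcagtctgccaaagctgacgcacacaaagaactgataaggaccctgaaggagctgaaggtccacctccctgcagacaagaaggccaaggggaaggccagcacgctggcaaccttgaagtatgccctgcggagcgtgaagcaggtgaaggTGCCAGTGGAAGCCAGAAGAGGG

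The Cryptochromes, which bind and silence CLOCK and BMAL1, were nearer to each other in replicate 1 than in replicate 2. Cry1, at chr10:85131700-85185064 on the minus strand (ENSMUSG00000020038.10), had 145 and 200 counts, or 1.77 and 2.65 TPM (2.21 ± 0.622 TPM, SD, n = 2, percentile 39.4). Cry2, at chr2:92403646-92434043 on the minus strand (ENSMUSG00000068742.11), had 162 and 122 counts, or 1.46 and 1.00 TPM (1.23 ± 0.325 TPM, percentile 29.0). Cry1 was higher than Cry2 in TPM in both libraries, 1.21 and 2.65 times, but had fewer counts than Cry2 in replicate 1. With transcripts under 500 bases left out, the ratios were 1.21 and 2.32. The deposited intervals of TPM of Cry1, 1.62 to 10.9 in replicate 1 and 2.29 to 7.25 in replicate 2, overlapped that of Cry2 in replicate 1, 1.27 to 2.24, and lay above that of replicate 2, 0.868 to 1.63.

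The REV-ERB receptors stood at opposite ends of the list. Nr1d2, at chr14:18204054-18239127 on the minus strand (ENSMUSG00000021775.11), had 1581 and 1379 counts, or 14.13 and 13.83 TPM (13.98 ± 0.212 TPM, SD, n = 2, percentile 79.6), the highest of the 10 genes in both libraries. Nr1d1, at chr11:98767932-98775333 on the minus strand (ENSMUSG00000020889.11), had 14 and 6 counts, or 0.21 and 0.07 TPM (0.14 ± 0.099 TPM, percentile 5.49), the lowest. The TPM of Nr1d2 was 67.3 and 198 times that of Nr1d1, a ratio that rests on the few Nr1d1 counts. The deposited intervals did not come near each other, at 12.8 to 14.9 and 12.5 to 14.7 TPM for Nr1d2 and 0.124 to 0.442 and 0.0418 to 0.247 TPM for Nr1d1. The 3′ end of Nr1d1 overlaps Thra, the thyroid hormone receptor alpha gene on the other strand, over 263 exonic bases, and Thra had 106 and 77 counts. No label or header says if counting used strand, so reads of that overlap cannot be placed with certainty.

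The output genes Bhlhe40 and Dbp were in the middle. Bhlhe40 encodes DEC1, a repressor that competes for E-boxes, and lies at chr6:108660629-108666925 on the plus strand (ENSMUSG00000030103.11). It had 316 and 302 counts, or 3.52 and 4.31 TPM (3.915 ± 0.559 TPM, SD, n = 2, percentile 52.0). In replicate 2, 28.8% of that TPM came from 10.61 counts on transcripts under 500 bases, against 0 counts in replicate 1, and without them Bhlhe40 stood at 3.52 and 3.07 TPM. Dbp encodes a PAR bZIP activator that binds D-boxes, and lies at chr7:45705088-45710203 on the plus strand (ENSMUSG00000059824.12). It had 153 and 150 counts, or 3.26 and 3.06 TPM (3.16 ± 0.141 TPM, percentile 46.9), the steadiest of the 10 in TPM after Nr1d2 when the SD is set against the mean. Dbp shares 539 exonic bases with Sphk2 on the other strand, a sphingosine kinase gene with 1097 and 1587 counts, so its counts are uncertain in the same way.

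From high to low the order of mean TPM was Nr1d2, Clock, Per1, Bhlhe40, Dbp, Cry1, Arntl, Cry2, Per2 and Nr1d1. Among neighbours in that order, only Arntl and Cry2 had TPM values that overlapped between libraries. Without transcripts under 500 bases Bhlhe40 and Dbp overlapped as well, at 3.52 and 3.07 against 3.26 and 3.05 TPM. The deposited intervals of TPM resolve less of the order. Only Nr1d2 and Clock, and Clock and Per1, had intervals apart in both libraries. Those of Cry1 and Arntl, and of Per2 and Nr1d1, overlapped in replicate 1 only. All other neighbours overlapped in both libraries, for example Per1 and Bhlhe40 in replicate 1, at 4.40 to 5.47 and 3.24 to 4.83 TPM. The index-based table, made from the reads and a transcript index without the alignments, gave 9.29 and 4.08 TPM for Nr1d2, 5.90 and 2.22 for Clock, and 0.127 and 0.0214 for Nr1d1. Its TPM values were lower for most well-counted protein-coding genes, though not for every gene. Over the well-counted protein-coding genes, the median ratio to the gene-level TPM was 0.671 in replicate 1 and 0.316 in replicate 2. Levels in the index-based table are therefore not compared with gene-level ones. Within it Nr1d2 had 73.3 and 191 times the TPM of Nr1d1, Clock 5.98 and 7.64 times that of Arntl, Per1 17.0 and 7.05 times that of Per2, and Cry1 1.14 and 1.67 times that of Cry2. The ratio of 7.05 rests in part on Per2-202, whose 1.57 counts made 52.3% of the index-based TPM of Per2 in replicate 2. Each of those 4 pairs kept its direction in both libraries, though for the Cryptochromes in replicate 1 it rested on few counts. In that library the Cry1 TPM, 1.51 against 1.33 for Cry2, included 0.206 TPM from 3.98 counts on Cry1-202, of 406 bases. It also included 0.370 TPM from 10.3 counts on Cry1-204, of 506 bases. The coding Cry1-201 alone had 0.938 TPM there, below the 1.15 TPM of Cry2-201, while in replicate 2 it was above, at 0.568 against 0.378 TPM. By index-based counts Cry1 had 242 and Cry2 403 in replicate 1. Parts of the order did not hold in the index-based table. There Cry2 was above Arntl in both libraries, at 1.33 and 0.560 TPM against 0.987 and 0.290. In replicate 2 it also put Cry1 above Dbp, at 0.936 against 0.676 TPM, and Bhlhe40 level with Per1, at 1.78 against 1.77 TPM. Bhlhe40 had 1.08 and 1.41 times the TPM of Dbp in the gene-level table and 2.30 and 2.64 times in the index-based one. The index-based ratios rest in large part on transcripts under 500 bases. There Bhlhe40-202 held 25.7% and 36.9% of the TPM of Bhlhe40 in replicates 1 and 2, and Bhlhe40-203 held 22.0% and 16.2%.

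The rest of the clock pathway gives the frame for these levels. It was described with 20 further genes, of which 10 had a mean above the median protein-coding gene and 0 above the 90 percentile, with a median of 3.19 TPM. The 3 highest were Nono, an RNA-binding partner of the Period proteins, with 24.93 and 30.16 TPM, Cipc, an inhibitor of CLOCK, with 24.85 and 27.79 TPM, and Csnk1d, a kinase that phosphorylates the Period proteins, with 18.17 and 18.28 TPM. All 3 were above Nr1d2 in both libraries. The 3 lowest were Rorb, a nuclear receptor that opposes REV-ERB at ROREs, with 0 counts in both libraries, Hlf, a PAR bZIP relative of Dbp, with 1 and 0 counts, and Fbxl21, an F-box protein that binds Cryptochromes, with 0 and 3 counts. Rorb had 570 and 185 estimated counts in the index-based table, so that its absence from the gene-level one depends on the table. A count of 0 allows up to 0.142 CPM (counts scaled to a total of 1e+06) in replicate 1 and 0.135 CPM in replicate 2, for counting error only. Rora, the receptor of the same family, was detected with 264 and 222 counts and 0.99 and 0.79 TPM. Npas2, the paralog of Clock, had 10 and 12 counts, and Arntl2, the paralog of Arntl, had 8 and 3, against 794 and 602 in the index-based table. Per3 had 257 and 208 counts (1.63 and 1.20 TPM), a higher TPM than Per2 in both libraries.

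**Figure D2:**
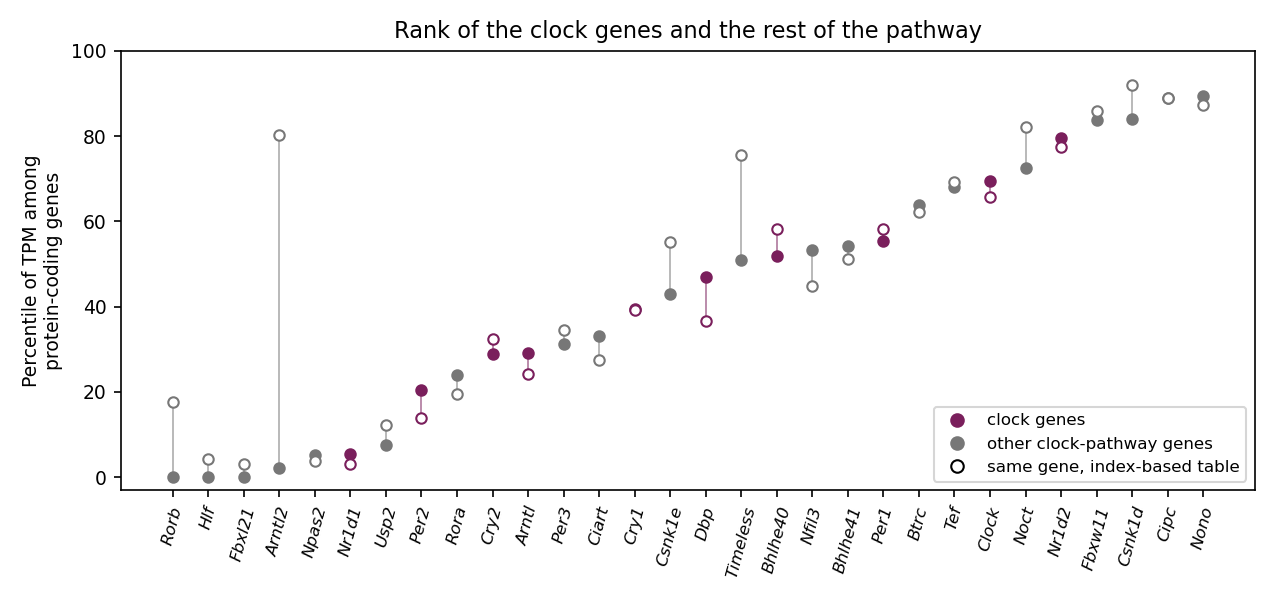
Percentile of TPM among protein-coding genes for the 10 clock genes (purple) and the 20 other clock-pathway genes (grey). Filled circles, which set the order, are the percentile of mean TPM in the gene-level table. Open circles are the mean of the percentiles of the 2 libraries in the index-based table. The clock genes run from percentile 5.49 for Nr1d1 to 79.6 for Nr1d2, and Arntl2 and Timeless differ most between the tables.

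No clock gene differed between the libraries by as much as 2-fold past the test. Counts of each gene were compared with its expected share by an exact binomial test, two-sided, with Benjamini-Hochberg adjustment over 22502 genes and the log2 ratio taken as replicate 1 over replicate 2. The test covers counting error only and compares 2 libraries, not conditions. None of the 10 clock genes had an adjusted p under 0.05 together with a ratio of at least 2-fold, where 4.84% of all genes tested did, and 1.97% of those at 100 or more counts in each library. The 7 clock genes with that many counts were Clock, Per1, Cry1, Cry2, Nr1d2, Dbp and Bhlhe40. At any fold, 5 of the 10 had an adjusted p under 0.05, against 26.7% of all genes tested, and 4 of those 7, against 53.1% of genes at that depth, a share near the background.

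Clock was higher in replicate 1 by 0.45 on the log2 scale (95% counting interval 0.35 to 0.55, exact binomial test, adjusted p = 2.17e-17), and so was Nr1d2 by 0.27 (0.16 to 0.37, adjusted p = 3.69e-06). These 2 genes have the most counts, and their small p-values go with small ratios. Arntl was higher in replicate 1 by 0.67 (0.27 to 1.09, exact binomial test, adjusted p = 0.00409), the largest ratio of those past the adjusted p. Cry2 was also higher, by 0.48 (0.13 to 0.83, adjusted p = 0.0223), while Cry1 was lower in replicate 1, with a log2 ratio of -0.39 (-0.71 to -0.08, adjusted p = 0.0495). The Cryptochromes thus had ratios of opposite sign. With spread between cultures allowed for, at a dispersion of 0.01 or 0.04 in edgeR's exact test, none of the 10 had an adjusted p under 0.05, and 2 and 0 had an unadjusted p under 0.05.

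Per1, Dbp and Bhlhe40 had ratios of 0.14, 0.10 and 0.14 with intervals that held 0 (exact binomial test, adjusted p = 0.244, 0.790 and 0.483). Per2 had a log2 ratio of -0.20 in counts (-0.66 to 0.25, adjusted p = 0.672). Nr1d1 had the widest interval, -0.18 to 2.96 around a ratio of 1.23 (adjusted p = 0.200), so that at this depth a difference of several fold could not be told from none. In all, 8 ratios were above 0 and 2 below, with a median of 0.20, against -0.02 over all genes tested and 0.04 over genes at 100 or more counts in each library.

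**Figure D3:**
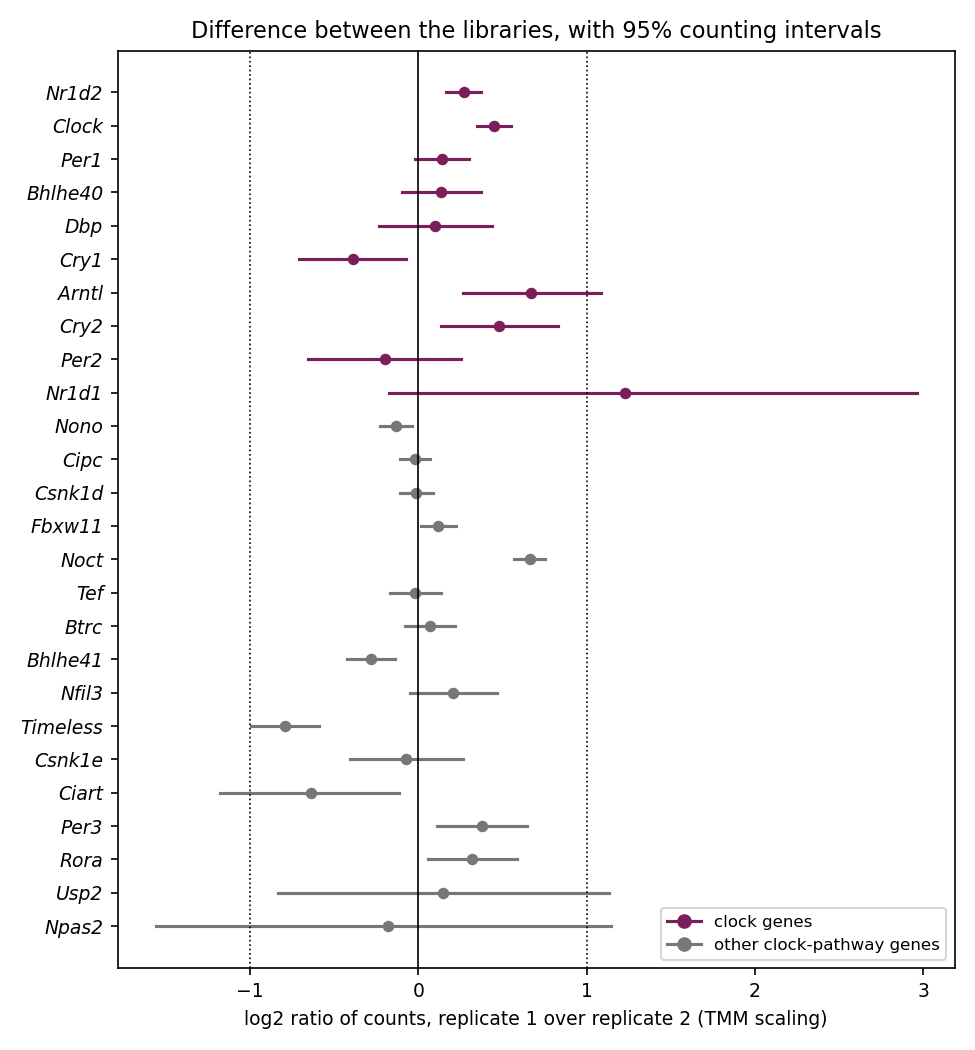
log2 ratio of counts, replicate 1 over replicate 2, for the 10 clock genes (purple) and the other clock-pathway genes that reach 10 counts in each library (grey), with 95% counting intervals; dotted lines mark 2-fold. Clock, Nr1d2, Arntl and Cry2 lie above 0, Cry1 lies below it, and the interval of Nr1d1 spans from under 0 to past 2-fold.

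Of the 20 other pathway genes, 19 had a count and were tested, and none passed both thresholds. At any fold 5 had an adjusted p under 0.05, against the 26.7% of all genes tested given above. All 5 are among the 13 pathway genes with 100 or more counts in each library, where 53.1% of all genes passed. The share was thus not above the background. Noct and Per3 were higher in replicate 1, and Timeless, Bhlhe41 and Nono were lower. Noct, which encodes nocturnin and whose RNA cycles in many tissues, had 2434 and 1618 counts, fewer than in the index-based table, and a log2 ratio of 0.66 (exact binomial test, adjusted p = 1.34e-45). Timeless, a replication-fork protein related to the fly clock gene, had 310 and 564 counts and a log2 ratio of -0.79 (adjusted p = 4.83e-14). Both ratios lay farther from 0 than those of Clock and Nr1d2. Bhlhe41, the paralog of Bhlhe40, had 701 and 896 counts and a log2 ratio of -0.28 (adjusted p = 6.48e-04).

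Part of the clock RNA was assigned to transcripts annotated as retaining an intron. Of the 43 transcripts of the 10 genes, 25 are annotated as protein-coding, 12 as retained introns, 5 as processed transcripts and 1 as a target of nonsense-mediated decay, and 3 had no reads in any table or library. Arntl, Clock, Cry1, Nr1d2, Dbp and Bhlhe40 have a retained-intron transcript in the annotation, and the other 4 have none, so for those no share can be measured. The share of a gene's transcript TPM in retained-intron transcripts was 29.4% and 43.4% for Nr1d2, 32.8% and 37.8% for Clock, and 38.9% and 30.9% for Bhlhe40 in replicates 1 and 2. Their means were 36.4% ± 9.86, 35.3% ± 3.52 and 34.9% ± 5.70 (SD, n = 2), at percentiles 74.8, 73.6 and 72.9 of a background set. That set is the 5156 protein-coding genes that have such a transcript and reach 100 counts in each library. Arntl had 20.4% and 17.9%, Cry1 13.6% and 24.5%, and Dbp 12.0% and 18.0%, at percentiles 44.9, 44.8 and 35.6. Arntl is ranked against that set but is not in it, having 85 counts in replicate 2. The median over the 6 genes was 27.0%, against 21.4% over those 5156 genes, whose 90 percentile was 51.9%. In the index-based table Cry1 had 38.1% and 39.3% in replicates 1 and 2, at percentile 69.3, so its place depends on the table. There Arntl and Dbp stayed low, at percentiles 27.5 and 24.8, and Nr1d2, Bhlhe40 and Clock were at 80.2, 73.4 and 69.1.

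As shares of counts the order was another, since short transcripts turn few counts into much TPM. Bhlhe40 had 34.5% and 25.5% of its counts in retained-intron transcripts (30.01% ± 6.38, SD, n = 2) and Arntl 17.9% and 14.2% (16.1% ± 2.59). Clock had 11.8% and 14.8%, Nr1d2 7.04% and 13.3%, Dbp 5.77% and 12.7%, and Cry1 1.59% and 2.96%. Bhlhe40 was therefore the clock gene with the largest share of counts on retained-intron transcripts in both libraries. Most of it was Bhlhe40-204, a single exon of 2620 bases at chr6:108663046-108665665, which had 109 and 74.4 counts beside 207 and 217 for the coding Bhlhe40-201. Of its bases 1187 are shared with the exons of Bhlhe40-201 and 1433 are its own. The short coding Bhlhe40-202, of 476 bases, and the retained-intron Bhlhe40-203, of 368 bases, had 0 and 7.96, and 0 and 2.65 counts.

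**Figure D4:**
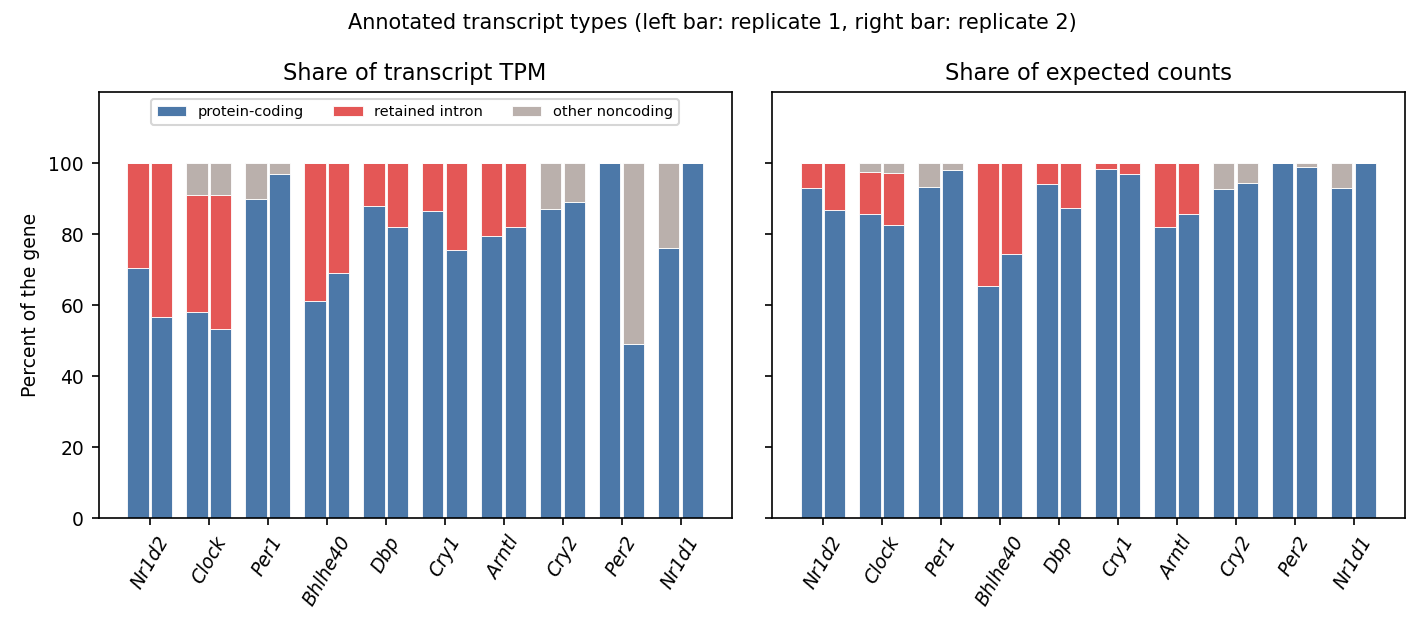
Percent of each clock gene's transcript TPM (left panel) and expected counts (right panel) in protein-coding (blue), retained-intron (red) and other noncoding (grey) transcripts, with replicate 1 as the left bar and replicate 2 as the right bar of each gene. The retained-intron share of Nr1d2 is 29.4% and 43.4% by TPM but 7.04% and 13.3% by counts, and the grey bar of Per2 in replicate 2 is the 51.0% held by Per2-202.

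Among the transcripts of Nr1d2, the coding Nr1d2-201 held 1470 and 1196 counts. The retained-intron transcripts Nr1d2-202, of 1680 bases, and Nr1d2-203, of 687 bases, held 68.7 and 121, and 42.7 and 61.6 counts. Both had fewer counts in replicate 1 by alignment, while Nr1d2-201 had more. In the index-based table, where replicate 1 had the larger total, Nr1d2-202 had 194 and 196 counts. Nr1d2-203 had 113 and 90.1 there, so its direction in counts depends on the table. Clock was read mostly as Clock-205, of 9744 bases, with 1093 and 812 counts, and Clock-201, of 7478 bases, with 453 and 310 counts. Its retained-intron transcripts Clock-203 and Clock-206 had 183 and 139, and 34.8 and 71.6 counts. Clock-203 was higher in replicate 1, like the coding pair, and Clock-206 was lower.

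Arntl was read mainly as the coding Arntl-201, with 94.6 and 72.9 counts. Its retained-intron transcript Arntl-202, a single exon of 3995 bases that shares no base with Arntl-201, had 20 and 10 counts. Cry1 was nearly all Cry1-201, with 143 and 194 counts, and its short retained-intron transcripts Cry1-204 and Cry1-202 had 2.31 and 3.42, and 0 and 2.49 counts. Dbp-201 had 131 and 115 counts, the shorter coding Dbp-204 13.6 and 8.94, and the retained-intron Dbp-202 and Dbp-205 6.95 and 6.83, and 1.88 and 12.2 counts. The main coding transcript held most counts of each of these 3 genes in both libraries.

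Per1 was read as Per1-201, with 501 and 504 counts, and the alternative coding transcript Per1-202, with 91.6 and 105 counts. Per1-205, the 1 transcript annotated for nonsense-mediated decay, had 43.7 and 12.7 counts, so replicate 1 held more of it while the coding transcripts were near equal. Per1-204, a coding fragment of 496 bases, had 0 counts in both libraries in the alignment-based table, but 26.1 and 29.6 in the index-based one. Cry2-201 had 141 and 115 counts, the processed transcript Cry2-203 11.6 and 6.83, and Cry2-204 0 counts in both libraries by alignment, against 0 and 3.69 by the index. Nr1d1-201 had 13.2 and 6.29 counts, and the processed transcript Nr1d1-202 had 1 and 0, which made 23.8% of the TPM of Nr1d1 in replicate 1. Per2-202 had 0 and 1.57 counts in the index-based table, as scarce there as by alignment, yet held 52.3% of the TPM of Per2 there in replicate 2.

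Several members overlap other annotated genes. On the same strand, Clock contains Gm43658, a gene record of unassigned type with 237 and 141 counts, and the pseudogene Ube2n-ps1, with 26 and 0 counts, neither of which shares exonic bases with Clock. Cry2 shares 295 exonic bases with the noncoding D930015M05Rik (4 and 5 counts), Bhlhe40 118 with the antisense 0610040F04Rik (1 and 1) and Arntl 33 with the antisense Gm45355 (0 and 0). For these 3 genes the partner on the other strand had at most 5 counts in a library, unlike Thra beside Nr1d1 and Sphk2 beside Dbp.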

How the data were processed

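Ribosomal-RNA-depleted nucleoplasmic RNA was measured in 2 libraries of 1 group. Per the file headers, all tables use mm10 and GENCODE M21 and keep the libraries separate. The authors deposited expected counts, in which a read shared by several transcripts is divided among them, and TPM, counts per effective length scaled to 1e+06 over a table, so that transcripts shorter than the library's fragments turn few counts into much TPM. The bounds of the TPM intervals were used as deposited scores of the authors, whose level is not stated. Aligner, quantifier and strand use remain not given in the sources used here. A separate index-based transcript table, deposited by the authors with estimated counts and TPM, was summed per gene as an alternative.

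Expected counts were rounded. Totals were 20612078 and 22772081. Small RNAs took 73.9% and 71.5% of TPM, which lowers the TPM of all other genes alike. TMM factors came from edgeR 4.0.16 in R 4.3.3. With a single library on each side no spread could be estimated for a model, so counts were compared by exact binomial tests (scipy 1.17.1), Benjamini-Hochberg adjusted over genes with 1 or more counts. Ratios used 0.5 added to each count. Intervals and limits (3 counts for a count of 0) cover counting error only.

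The clock genes, the pathway list, the markers and the motifs were chosen with earlier results of these data known. Named were all 10 clock genes, their transcripts with 10% or more of a gene's TPM in any table and library, overlapping genes, and, of the pathway list, the 3 highest and 3 lowest genes and those called. Rora, Npas2, Arntl2, Per3, Noct, Timeless and Bhlhe41 were named after their values were seen. Motifs were searched in RefSeq promoters (GRCm38.p6). A few genes of the pathway and marker lists are not reported here. Alternatives covered the table, the scaling (DESeq2 1.42.0 size factors), the count added, the dispersion, the fold, the count minimum and each library alone. Leaving out transcripts under 500 bases was chosen after seeing the data.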

Additional observations from a re-analysis of the deposited data

How the results depend on the processing

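Library totals and DESeq2 size factors in place of TMM, and 5 counts added in ratios, left the clock genes called between the libraries at 0. At a 1.5-fold threshold 1 clock gene was called (Arntl), 2 other pathway genes (Noct and Timeless) and 2310 of all genes. The calls over all genes were 2304 in the index-based table (1 of them another pathway gene, Rorb), 686 and 166 with an edgeR exact test at a dispersion of 0.01 and 0.04, and 170 where 100 or more counts in both libraries were required, against 1090 in the gene-level table. The other pathway genes above the 90 percentile were 0, but 1 in the index-based table, 4 with no count minimum, and 0 to 1 with either library left out. In the index-based table, whose TPM is lower for most well-counted protein-coding genes, the median level of the clock genes was 1.202 TPM. Their median retained-intron share was 38.6% there, where the median over genes was 27.4%. The alignment-based share ran from 24.9% to 27.7% with either library left out. No log2 ratio of a clock gene changed sign under the other scalings, the other count added or the index-based table. The order of levels did change, as given above for Cry2 and Arntl and, in replicate 2, Cry1 and Dbp. Leaving out transcripts under 500 bases changed the mean of Bhlhe40 to 3.295 TPM, against 3.915, and that of Per2 to 0.445 TPM, against 0.69, and turned Bhlhe40 to the higher TPM in replicate 1. The cause was not tested. No paired analysis was possible because there is 1 group, and leaving out a library leaves no comparison between libraries. Depth limits Nr1d1 most, at 14 and 6 counts.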

Other observations

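Some pathway genes had other levels in the index-based table. Arntl2, the paralog of Arntl, had 8 and 3 counts in the gene-level table, against 794 and 602 estimated counts in the index-based one, in replicates 1 and 2. Rorb was listed at 0 counts in the gene-level table and had 570 and 185 index-based counts. Noct had 2434 and 1618 counts in the gene-level table and 10273 and 6814 in the index-based one. Among the 10 clock genes the index-based counts were 110 and 106 for Per2, 2253 and 1582 for Nr1d2 and 403 and 236 for Cry2. The source of these differences was not tested.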
